A study of Mus musculus and Homo sapiens with 24 samples.

Results

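The day 0 myoblasts of both cell lines are described here: 8 of the 24 RNA-seq libraries of a study of differentiating muscle cells. Of these, 4 come from C2C12, a mouse myoblast line, and 4 from LHCN-M2, a human myoblast line. All are labelled as skeletal myoblasts of control genotype at day 0, before the later days on which cells of each line were harvested again. LHCN-M2 cells are known to have been immortalised with added TERT, the catalytic subunit of telomerase, and added CDK4, a kinase of the G1 phase. The labels name no medium, no treatment and no passage, and each line stands alone for its species, so cell line, species, genome and gene annotation cannot be told apart in any comparison between them. They also do not say whether the 4 libraries of a line came from separate cultures, so a p-value here reflects variation among 4 libraries that could be technical replicates.

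Genes were chosen by rank. The 16608 gene symbols that occurred once in each line's count table and matched ignoring case were kept, which is 29.3% of the mouse rows and 28.3% of the human rows. In each library the count of a gene was divided by its deposited length and scaled so that the matched genes summed to 1000000, which gives the transcript level termed TPM, and genes were ranked on it. A gene was called high in a line if it stood in the highest 5% of the matched genes in all 4 day 0 libraries of that line. It was called high in 1 line only if it was also in the lower 50% in all 4 libraries of the other line. By this rule 378 genes (2.28%) were high in both lines, 53 (0.319%) in C2C12 only and 32 (0.193%) in LHCN-M2 only. Symbols in capitals stand for the matched mouse and human pair. After a TPM mean the sign ± gives the SD over 4 libraries, and after a log2 difference its standard error. The rank rule uses the day 0 levels themselves, so the levels of the genes it picked are a description and no test of them is offered as support.

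Myoblasts are the dividing descendants of muscle satellite cells. Satellite cells carry the transcription factor PAX7. When they are activated, MYF5 and MYOD1 commit them to muscle, and MYOG, MEF2 factors and the membrane protein MYMK then drive differentiation and fusion into myotubes after the cells leave the cell cycle. ID and SNAI proteins, TWIST1 and Notch signalling hold that step back in growing cells, and CDK inhibitors such as CDKN1A enforce the exit from the cycle.

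Libraries held 32795699 to 39597995 counts in C2C12 and 37460225 to 43446757 in LHCN-M2, with 92.0% to 92.2% and 93.4% to 94.1% of them in the matched genes. A count was seen for 12533 to 12690 matched genes per C2C12 library and 12825 to 12919 per LHCN-M2 library, and 1790 matched genes had no count in any of the 8. LHCN-M2 replicate 2 stood apart from the other 3 libraries of its line: Spearman's rho of its ranks with theirs was 0.979 to 0.981, against 0.987 to 0.989 among the other 3 and 0.987 to 0.989 within C2C12. For example, TMSB10, a small actin-binding protein, was at 26879 TPM there and at 12902 to 15275 in the other 3, while ITGB1, the integrin beta1 chain, was at 1071 there and at 1883 to 1952 in the others. Without that library 403 genes were high in both lines, 55 in C2C12 only and 37 in LHCN-M2 only, and each of the 378, 53 and 32 genes was still among them. Across lines the ranks of the 16608 genes gave rho of 0.787 to 0.791 over the 16 pairs of libraries. The day 6 C2C12 and day 12 LHCN-M2 libraries gave 0.786 to 0.792, and day 0 against the last day gave 0.950 to 0.955 within C2C12 and 0.922 to 0.937 within LHCN-M2. These correlations are across genes, which are not independent, and describe the libraries only.

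The genes highest in both lines were those of the cytoskeleton, of protein synthesis and of the matrix. The 378 genes were 49.9% of the 757 genes high in C2C12 and 54.5% of the 694 high in LHCN-M2. At the edge of the rule MAT2A and TM4SF1, at a lowest percentile of 95.0205 over the 8 libraries, were inside, and SOD1 and RPL37, at 94.9904, were outside. Of the 378, 309 were also in the highest 5% in all 8 last-day libraries.

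**Figure D1:**
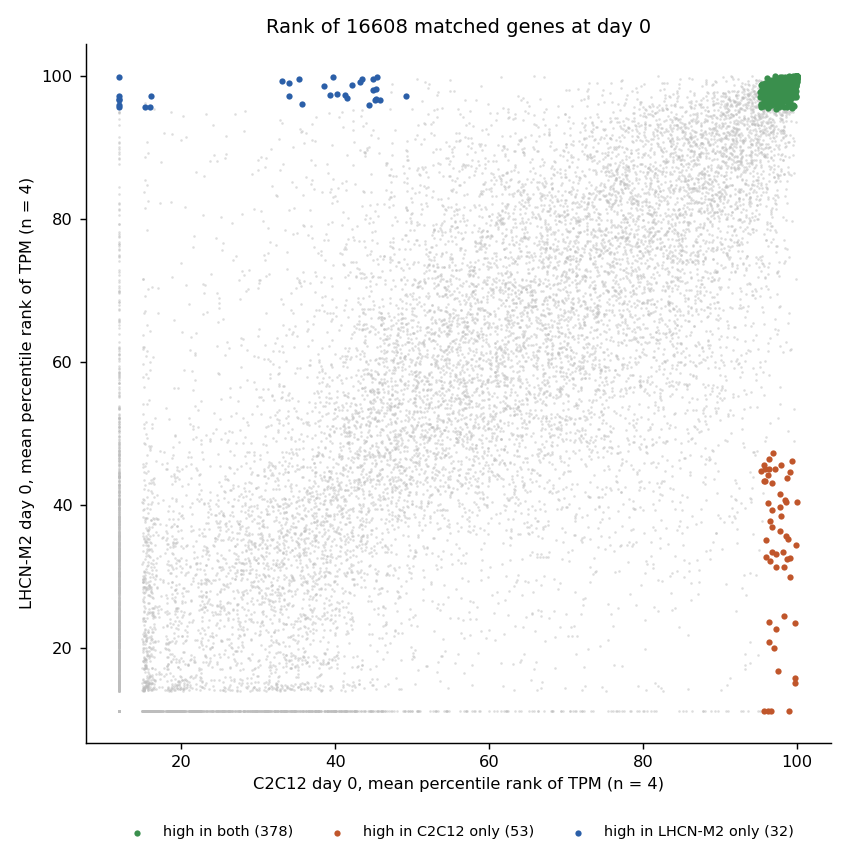
Mean percentile rank of TPM over the 4 day 0 libraries of C2C12 (x axis) and of LHCN-M2 (y axis) for the 16608 matched genes, each a point, with the 378 genes high in both lines, the 53 high in C2C12 only and the 32 high in LHCN-M2 only in colour. The genes high in both lines fill the upper right corner, and those high in 1 line only lie along the right and upper edges.

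Setting ribosomal protein and mitochondrially encoded genes aside, EEF1A1, the elongation factor that brings aminoacyl-tRNA to the ribosome, had the highest rank over the 8 libraries. Its TPM was 20356, 20244, 21076 and 19659 in C2C12 and 7618, 7439, 7493 and 7624 in LHCN-M2. All C2C12 libraries lay above all LHCN-M2 libraries. ACTB and ACTG1, the cytoplasmic actins, went the other way: ACTB was at 4659 ± 84.0 TPM in C2C12 and 7070 ± 155 in LHCN-M2 (SD, n = 4), and ACTG1 at 2691 ± 77.6 and 6636 ± 259. VIM, the intermediate filament protein of mesenchymal cells, was at 3998, 3793, 3923 and 4151 TPM in C2C12 and 2519, 3079, 2576 and 2448 in LHCN-M2, again without overlap. The actins are a family of near-identical genes, and reads shared between members could have been split or dropped in the counting.

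The glycolytic enzymes PKM and TPI1 and the collagen chain COL1A2 did not pass the test between the lines at an adjusted p of 0.05. PKM had 2604, 2569, 2679 and 2678 TPM in C2C12 and 2855, 3075, 2731 and 2704 in LHCN-M2, a log2 difference (C2C12 minus LHCN-M2) of -0.21 ± 0.11 (SE) with an edgeR adjusted p of 0.091, which was -0.86 (adjusted p = 2.34e-05) with gene length left out. COL1A2, a chain of type I collagen, had 1426, 1679, 1823 and 1593 TPM in C2C12, against 1609, 1319, 1568 and 1621 in LHCN-M2. The libraries of the lines overlapped for COL1A2, and the log2 difference was 0.00 ± 0.09 (adjusted p = 0.98), or 0.29 (adjusted p = 0.00935) without gene length. FTH1, the ferritin heavy chain that stores iron, had 1461 ± 33.7 and 1644 ± 163 TPM. Its log2 difference was -0.27 ± 0.11 (adjusted p = 0.047), but turned to 0.64 when gene length was left out, and missed the threshold without C2C12 replicate 2, 3 or 4 or LHCN-M2 replicate 3 (adjusted p = 0.0801 to 0.104). FN1, the matrix protein fibronectin, had 1574, 2732, 2224 and 2379 TPM in C2C12, and 5931, 3122, 6334 and 6543 in LHCN-M2. It was higher in every LHCN-M2 library than in any C2C12 library, with the value nearest to C2C12 in LHCN-M2 replicate 2. THBS1, a matricellular protein, was also high in both, but overlapped in replicate 2: 1365 to 1852 TPM in C2C12 and 1685 to 3297 in LHCN-M2.

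LGALS1, the galectin that is abundant in myoblasts, had 11741, 10849, 9776 and 10539 TPM in C2C12, against 5861, 9486, 4934 and 5614 in LHCN-M2. The C2C12 libraries were all higher, and LHCN-M2 replicate 2 came close to them. The log2 difference was 0.61 ± 0.23 (adjusted p = 0.0296) and missed the threshold without C2C12 replicate 1 or 2 or LHCN-M2 replicate 1, 3 or 4 (adjusted p = 0.0542 to 0.0822), and without gene length (0.46, adjusted p = 0.0831). S100A11, a calcium-binding protein, had 3144 ± 184 and 2201 ± 220 TPM, HSP90AB1, a cytosolic chaperone, 4537 ± 210 and 2045 ± 111, and EEF2, the translocation factor of translation, 5466 ± 263 and 2898 ± 116. These 3 were higher in C2C12 without overlap, but for S100A11 the difference missed the threshold without gene length (0.13, adjusted p = 0.342).

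Many genes differed between the lines, so counts of list members have to be read against that background. In the edgeR test with gene length in the model, 84.3% of the 12291 matched genes that passed the filter on low counts differed at an adjusted p under 0.05, 41.6% higher in C2C12 and 42.7% higher in LHCN-M2. With a further threshold of 2-fold, 28.7% were higher in C2C12 and 29.2% in LHCN-M2, and the counts of list members between the lines use that threshold. Counts of day 0 against the last day of a line use the adjusted p alone. The median log2 difference over all tested genes was -0.02. In any list, a member that passed the filter only through the line where it was high had to differ.

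**Figure D2:**
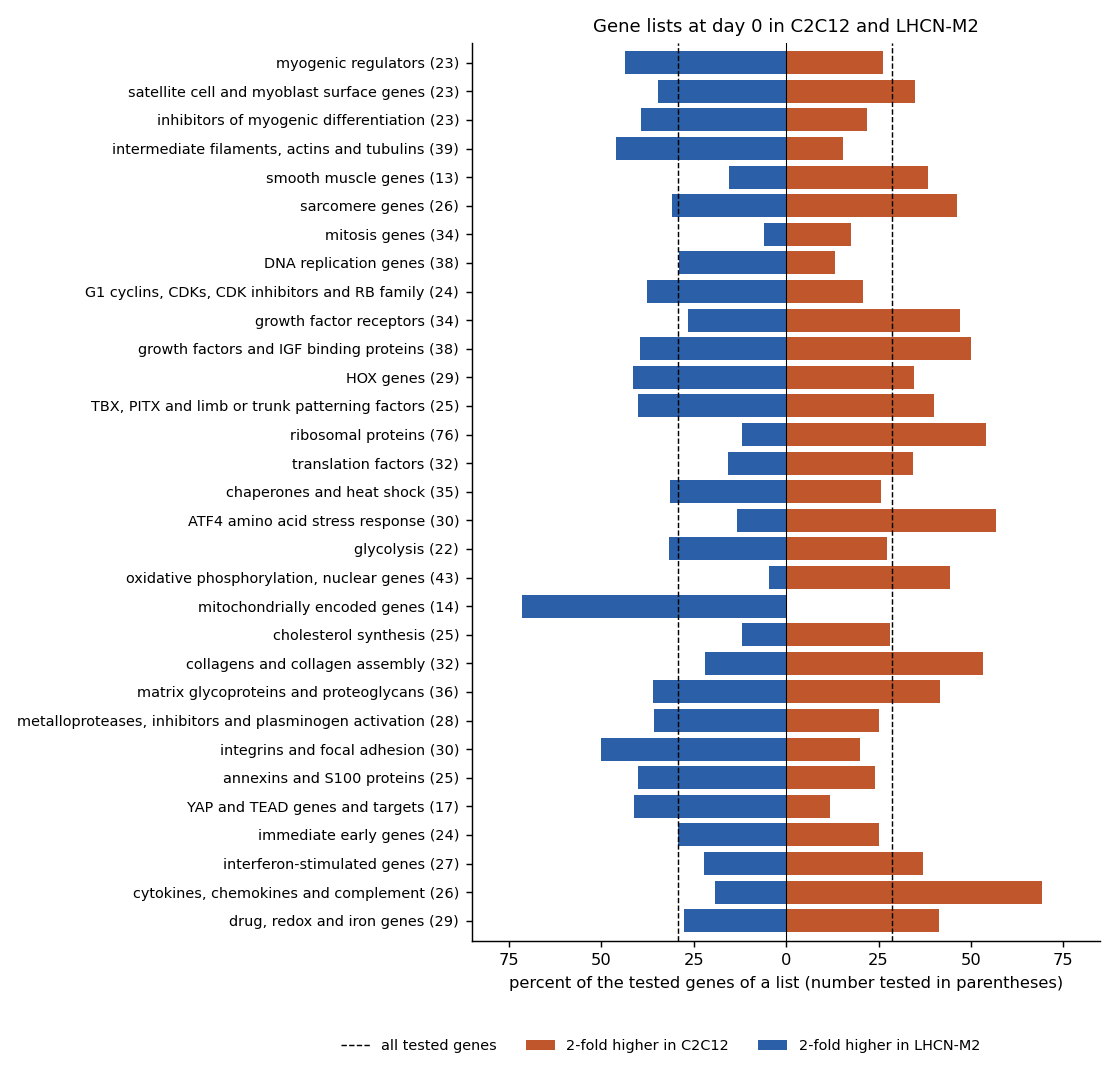
Share of the tested genes of each list, cell type markers not shown, that were at least 2-fold higher in C2C12 (bars to the right) or in LHCN-M2 (bars to the left) at an adjusted p under 0.05, in percent of the genes tested, whose number is in parentheses. Dashed lines mark the shares over all tested genes, 28.7% and 29.2%. Among the lists drawn, cytokines, ATF4 genes, ribosomal proteins and collagens reach furthest to the right, and mitochondrially encoded genes and integrins furthest to the left, but the bar of the ribosomal proteins in C2C12 falls from 41 to 13 of 76 genes without gene length.

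Ribosomal protein genes filled much of the high end in both lines. Of the 76 tested, 59 were high in both, and their summed level was 119030 to 137080 TPM in C2C12 and 53172 to 83323 in LHCN-M2, where replicate 2 had the highest sum. At least 2-fold higher in C2C12 were 41, and 9 in LHCN-M2, with a median log2 difference of 1.08. With gene length left out, 13 and 9 were, and the median was 0.43. RPL8 and RPL19, proteins of the large ribosomal subunit, show both ends of this. RPL8 had 4786, 4531, 4190 and 4397 TPM in C2C12 and 1920, 2689, 1613 and 1764 in LHCN-M2, with no overlap. RPL19 had 2260, 2043, 1950 and 2019 TPM in C2C12 and 1636, 2393, 1607 and 1617 in LHCN-M2. LHCN-M2 replicate 2 lay above all C2C12 libraries for RPL19 and the other 3 below them. The log2 difference of RPL19 was 0.08 ± 0.18 (adjusted p = 0.70). It was 0.32 (adjusted p = 0.000611) without LHCN-M2 replicate 2 and -0.57 without gene length. Ribosomal protein genes have many processed copies, and reads shared with those copies or with overlapping genes could not be told apart here.

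Chaperones and cytoskeletal genes were the other large groups at the high end. Of 35 chaperone and heat shock genes, 21 were high in both lines, and 9 were at least 2-fold higher in C2C12 and 11 in LHCN-M2. HSP90B1, the chaperone of the endoplasmic reticulum, had 1269 ± 89.0 TPM in C2C12 and 1473 ± 54.1 in LHCN-M2. Of 39 genes of intermediate filaments, actins and tubulins, 22 were high in both lines, 6 were at least 2-fold higher in C2C12 and 18 in LHCN-M2 (median log2 difference -0.82). Of the 43 nuclear genes of oxidative phosphorylation, 11 were high in both, 19 were at least 2-fold higher in C2C12 and 2 in LHCN-M2 (median 0.89, or 0.21 without gene length). The 14 genes encoded in the mitochondrial genome went the other way: none was 2-fold higher in C2C12 and 10 were in LHCN-M2, with a median of -2.92 and a summed level of 52414 to 55514 TPM against 125590 to 172000. As a share of all counts, all genes with a symbol starting with MT-, a wider set than these 14, took 2.24% to 2.29% in C2C12 and 3.56% to 4.37% in LHCN-M2. The deposited length of a gene scales the TPM levels. With gene length left out, the median of the 14 genes was -2.77, and 10 were at least 2-fold higher in LHCN-M2. The part of mitochondrial RNA in the levels of the other genes was not tested.

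Several myogenic regulators differed widely between the lines. MYF5, the first of the myogenic factors in activated satellite cells, had 38.4, 35.7, 40.8 and 40.1 TPM in C2C12 and 787, 600, 787 and 754 in LHCN-M2. MYOD1, the factor that commits cells to muscle, had 5.42, 4.84, 7.69 and 6.48 TPM in C2C12 and 132, 141, 120 and 119 in LHCN-M2. Each of these was far higher in all LHCN-M2 libraries than in any C2C12 library. The log2 difference was -4.33 ± 0.09 for MYF5 (adjusted p = 6.4e-11) and -4.49 ± 0.18 for MYOD1 (adjusted p = 2.4e-09). In C2C12, MYOD1 stood between the 43.0 and the 46.9 percentile of the matched genes, below the middle of the ranking. MYF6, the fourth member of the family, had 0.779 ± 0.548 TPM in C2C12 and 38.8 ± 5.05 in LHCN-M2 (log2 difference -5.77 ± 0.36, adjusted p = 7.2e-08).

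MYOG and MYMK, which mark the step to differentiation and fusion, went the other way at very low levels. MYOG had 9.59, 9.56, 10.9 and 9.27 TPM in C2C12 (539 counts) and no count in any LHCN-M2 library, so it was at least 186-fold higher in C2C12 when set against the floor of 3 counts over the LHCN-M2 libraries. MYMK, the membrane protein needed for myoblast fusion, had 2.43, 1.91, 1.26 and 1.33 TPM in C2C12 and no count in LHCN-M2, and was at least 21.7-fold higher. Intervals and floors of this kind cover counting error only. PAX7, the satellite cell factor, had 6 counts over the 4 C2C12 libraries and none in LHCN-M2, under the filter for testing, so no difference was detectable at this depth. PAX3, its relative in embryonic muscle precursors, had 0.0867 ± 0.026 TPM in C2C12 and 2.11 ± 0.557 in LHCN-M2. MEF2C, a partner of the myogenic factors, had 0.705 ± 0.118 and 6.89 ± 1.49 TPM, without overlap.

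A regulator that is not muscle-specific was closer. TCF3, the E protein that pairs with MYOD1, had 101, 108, 102 and 110 TPM in C2C12 and 59.98, 59.7, 56.3 and 57.9 in LHCN-M2, and was higher in C2C12 throughout. Of the 23 myogenic regulators tested, 6 were at least 2-fold higher in C2C12 and 10 in LHCN-M2, with a median log2 difference of -0.44 that turned to 0.29 when gene length was left out. In these bulk samples, fewer cells with a transcript and less of it per cell cannot be told apart.

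DES, the muscle intermediate filament protein and the fixed marker with the highest level, had 236, 238, 248 and 253 TPM in C2C12 and 467, 659, 454 and 442 in LHCN-M2. It was high in both lines by the rank rule, and higher in every LHCN-M2 library. NES, the filament protein nestin of proliferating precursors, was at 142, 154, 172 and 163 TPM in C2C12 and at 951, 969, 856 and 971 in LHCN-M2, with no overlap. CDH15, the M-cadherin of myoblasts, was at 16.1 ± 1.19 TPM in C2C12 and 164 ± 29.9 in LHCN-M2. In a mouse annotation (GENCODE M21, not shown to be that of the counts) the span of Cdh15 lies 100% within another gene on the same strand, and the part of that overlap in its low mouse level was not tested. TNFRSF12A, the TWEAK receptor of muscle precursors, was at 90.04 ± 3.97 TPM in C2C12 and 787 ± 37.4 in LHCN-M2.

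CD34 and VCAM1 were well expressed in C2C12 and near the floor in LHCN-M2. CD34, a sialomucin found on quiescent satellite cells and on fibroblasts and vessels, had 72.1, 74.9, 72.2 and 73.2 TPM in C2C12 and 1.17, 0.490, 0.684 and 1.05 in LHCN-M2, a log2 difference of 6.36 ± 0.21 (adjusted p = 7.1e-10). VCAM1, an adhesion molecule used to sort mouse satellite cells, had 89.8, 92.5, 101 and 90.6 TPM in C2C12 and 0.560, 0.389, 1.06 and 1.03 in LHCN-M2 (6.86 ± 0.23, adjusted p = 8.8e-10). Every C2C12 library was higher for both. CXCR4, a chemokine receptor on migrating precursors, had 3.66 ± 0.906 TPM in C2C12 and no count in LHCN-M2, at least 101-fold. ITGA7, the laminin-binding integrin of muscle, was at 93.6 ± 7.05 and 53.1 ± 5.01 TPM, and NCAM1, used to sort human myoblasts, at 68.9 ± 7.70 and 19.5 ± 3.51. ITGB1 and CAV1, the coat protein of caveolae, were high in both lines. Of the 23 surface genes tested, 8 were at least 2-fold higher in each line.

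**Figure D3:**
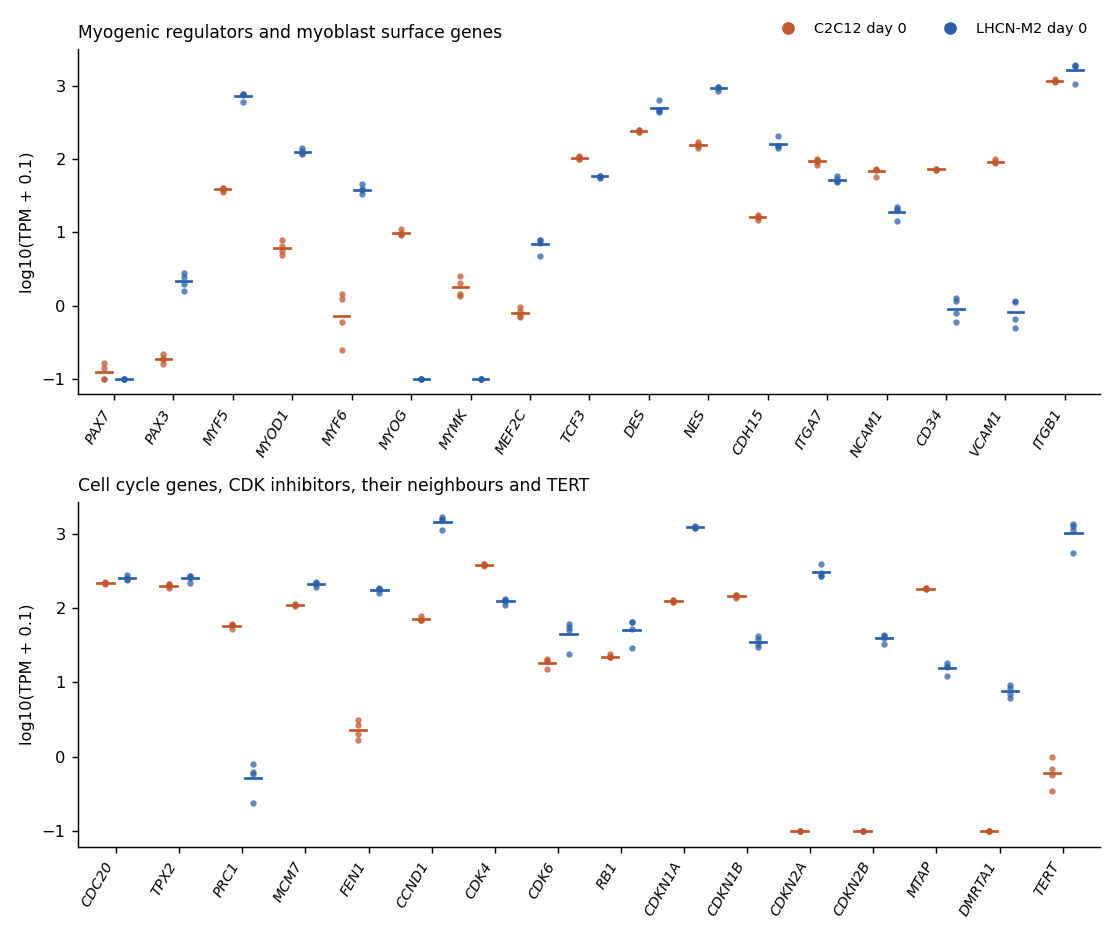
Level in each of the 4 day 0 libraries of C2C12 and of LHCN-M2, as log10(TPM + 0.1), with the mean as a short line, for myogenic regulators and surface genes (upper panel) and for cell cycle genes, CDK inhibitors, their neighbours and TERT (lower panel). MYF5, MYOD1, MYF6, CDKN2A and TERT sit far higher in LHCN-M2, and MYOG, CD34, VCAM1 and PRC1 in C2C12.

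Among the inhibitors of myogenic differentiation, SNAI2 was the member that ranked high in both lines. SNAI2, a repressor that competes with MYOD1 at muscle enhancers, had 323, 362, 365 and 349 TPM in C2C12, against 341, 335, 351 and 328 in LHCN-M2. The libraries of the lines overlapped, and the log2 difference was -0.05 ± 0.08 (adjusted p = 0.56), or -0.67 (adjusted p = 1.36e-05) without gene length. Its paralog SNAI1 had 41.8 ± 2.28 TPM in C2C12 and 18 counts in all in LHCN-M2, a log2 difference of 7.06 ± 0.57. TWIST1, a bHLH repressor of MYOD1, had no count in C2C12 and 216, 248, 205 and 218 TPM in LHCN-M2, at least 4382-fold higher than the floor. ID3, which takes E proteins away from MYOD1, had 172, 168, 163 and 175 TPM in C2C12 and 436, 503, 420 and 405 in LHCN-M2, and was higher in LHCN-M2 without overlap. HEYL, a Notch target, had 0.138 ± 0.116 and 31.8 ± 3.03 TPM, while NOTCH3, a Notch receptor, had 63.1 ± 9.94 and 4.26 ± 1.18. Of the 23 tested members, 5 were at least 2-fold higher in C2C12 and 9 in LHCN-M2.

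Muscle structural genes were low in both lines, with exceptions. Of 43 sarcomere genes matched, 26 passed the filter at day 0, and 12 of these were at least 2-fold higher in C2C12 and 8 in LHCN-M2. Members that passed only through the line where they were high had to differ, so this count is no support for a difference of the list. ACTC1, the cardiac actin that is also made in developing muscle, stood out in LHCN-M2 with 1340, 1276, 1173 and 1229 TPM, against 6.88, 5.12, 3.91 and 4.45 in C2C12, and was high in LHCN-M2 only. TNNT2, the cardiac troponin T, was low in both: 7.82 ± 0.518 TPM in C2C12 and 6.75 ± 1.82 in LHCN-M2 (log2 difference 0.11 ± 0.21, adjusted p = 0.65). LDB3, a Z-disc protein, had 29.7 ± 2.76 and 0.333 ± 0.205 TPM. Among smooth muscle genes ACTG2, the enteric smooth muscle actin, had 829, 842, 822 and 835 TPM in C2C12 and 0.276, 0.412, 0.177 and 0.430 in LHCN-M2, and CNN1, a calponin, had 42.6 ± 2.11 and 0.200 ± 0.148. TAGLN, an actin-bundling protein of smooth muscle and fibroblasts, had 3.72 ± 0.833 TPM in C2C12 and 288, 337, 236 and 274 in LHCN-M2. So ACTG2 was high in C2C12 only and TAGLN in LHCN-M2 only. Of the 13 smooth muscle genes tested, 5 were at least 2-fold higher in C2C12 and 2 in LHCN-M2. Their summed level was 6313 to 6570 TPM in C2C12 and 2309 to 2547 in LHCN-M2. The median log2 difference of the list was 0.26, and -0.38 with gene length left out.

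Whether day 0 was a growing state was checked on cell cycle genes. The median percentile of the 34 mitosis genes was 89.2 in C2C12 and 86.7 in LHCN-M2 at day 0, and that of the 38 replication genes 76.2 and 78.5, so both lines expressed both groups well above the middle of the ranking. Within LHCN-M2, where 27.5% of the 18214 genes tested were higher at day 0 than at day 12 and 27.1% lower, 33 of 34 mitosis genes and 36 of 38 replication genes were higher at day 0 (medians 2.50 and 2.05 on the log2 scale). Within C2C12, where 32.5% of 17065 genes were higher at day 0 than at day 6 and 33.1% lower, 4 mitosis genes were higher at day 0 and 21 lower, and 4 replication genes higher and 28 lower (medians -0.20 and -0.45). In C2C12, then, these genes do not set day 0 apart from day 6 as a growing state.

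Between the lines at day 0, the mitosis genes were close: 26 of 34 differed by less than 2-fold or did not pass the test, 6 were at least 2-fold higher in C2C12 and 2 in LHCN-M2. CDC20, the activator of the anaphase-promoting complex, had 213, 216, 223 and 217 TPM in C2C12, against 252, 276, 243 and 250 in LHCN-M2. The LHCN-M2 libraries were all higher (log2 difference -0.33 ± 0.10, adjusted p = 0.0095). TPX2, a spindle assembly factor, had 188, 201, 208 and 208 TPM and 269, 221, 250 and 271. It was also higher in LHCN-M2 (-0.42 ± 0.07), but the difference turned to 0.090 without gene length, as did that of CDCA8, a subunit of the chromosomal passenger complex (-0.88 ± 0.07, and 0.32 without gene length). PRC1, which bundles microtubules in the midzone, stood apart from the list with 57.3 ± 3.63 TPM in C2C12 and 0.460 ± 0.231 in LHCN-M2. The human row of PRC1 lies 99.5% within another row of the table on the same strand, and the part of that overlap in its value was not tested.

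Among replication genes, MCM7, a subunit of the replicative helicase, had 112, 112, 107 and 111 TPM in C2C12 and 221, 212, 195 and 223 in LHCN-M2, without overlap. FEN1, the nuclease that trims Okazaki fragments, had 1.60, 1.93, 2.56 and 3.06 TPM in C2C12 and 180, 189, 161 and 179 in LHCN-M2. FEN1 was thus higher in all LHCN-M2 libraries, by a log2 difference of -6.38 ± 0.20. The human row of FEN1 lies 92.6% within other rows on the same strand, of which FADS2 has the largest overlap, and the part of that overlap was not tested. On the mouse side, where the level was low, 0% of the span was covered on the same strand in GENCODE M21. Of the 38 tested, 5 were at least 2-fold higher in C2C12 and 11 in LHCN-M2, or 2 and 8 without gene length.

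Several single genes that govern entry into S phase differed strongly in level. CCND1, the D-type cyclin that binds CDK4 and CDK6, had 68.6, 69.3, 68.2 and 78.3 TPM in C2C12 and 1524, 1126, 1586 and 1658 in LHCN-M2, a log2 difference of -4.46 ± 0.11 (adjusted p = 1.3e-10). CDK4 had 394, 378, 368 and 398 TPM in C2C12 and 130, 125, 111 and 131 in LHCN-M2. CDK4 was thus lower in every library of the line known to carry added CDK4 (log2 difference 1.54 ± 0.10, adjusted p = 9.1e-08), whereas TERT had 1346, 554, 1112 and 1283 TPM in LHCN-M2, at the 98.5 percentile or above, and 0.576, 0.902, 0.250 and 0.462 in C2C12. A count per gene cannot tell an added coding sequence from the cell's own gene. LHCN-M2 replicate 2 had the lowest TERT level of its line. RB1, the retinoblastoma protein, had 22.2 ± 1.03 and 53.5 ± 17.2 TPM, and CDK6 18.6 ± 2.53 and 47.8 ± 16.2.

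CDKN2A, which encodes the INK4A inhibitor of CDK4 and the ARF protein, had no count in any C2C12 library and 269, 396, 268 and 298 TPM in LHCN-M2, at least 4374-fold higher than the floor. CDKN2B, the neighbouring INK4 inhibitor, also had no count in C2C12 and had 41.9, 32.6, 39.9 and 43.0 TPM in LHCN-M2, at least 664-fold. Both thus had counts in LHCN-M2 alone. DMRTA1, on the far side of CDKN2B, had no count in C2C12 and 7.61 ± 1.33 TPM in LHCN-M2 (at least 387-fold), and MTAP, the methionine salvage enzyme on the other side of CDKN2A, had 183 ± 2.58 TPM in C2C12 and 15.7 ± 2.44 in LHCN-M2. DMRTA1 and MTAP were chosen after their values were seen, as the neighbours of CDKN2A and CDKN2B. The human row of MTAP lies 99.9% within another row on the same strand, and its part in the low human value was not tested.

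CDKN1A, the p21 inhibitor, had 129, 120, 121 and 130 TPM in C2C12 and 1270, 1218, 1201 and 1194 in LHCN-M2, while CDKN1B, the p27 inhibitor, had 137, 150, 151 and 146 in C2C12, against 38.3, 29.7, 33.1 and 41.6 in LHCN-M2. The lines did not overlap for either and differed in opposite directions, by -3.38 ± 0.10 and 1.94 ± 0.09 on the log2 scale. CDKN1A was lower at day 0 than at the last day in both lines, by -1.45 ± 0.06 in C2C12 and -1.34 ± 0.07 in LHCN-M2 (edgeR adjusted p = 3.7e-15 and 3.7e-10). Of the 24 tested genes of G1 cyclins, CDKs, CDK inhibitors and the RB family, 5 were at least 2-fold higher in C2C12 and 9 in LHCN-M2. Over all tested genes the shares were 28.7% and 29.2%, so no difference is read from the list as a whole.

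The HOX genes, which record the position along the body axis from which cells came, separated the lines by cluster. In C2C12 the 10 matched genes of the HOXB cluster summed to 0.728 to 1.27 TPM per library, and in LHCN-M2 to 350.0 to 450.1. The 11 HOXA genes summed to 202 to 225 TPM in C2C12 and 44.0 to 55.0 in LHCN-M2. So the HOXB cluster was near 0 in C2C12, and the HOXA cluster was higher in C2C12 than in LHCN-M2. The 8 HOXC genes were closer, at 272 to 296 and 223 to 241 TPM, and the 9 HOXD genes were near 0 in C2C12 (up to 0.316 TPM) and at 4.35 to 6.83 in LHCN-M2. Of 38 matched HOX genes, 29 passed the filter, and 10 of these were at least 2-fold higher in C2C12 and 12 in LHCN-M2. Members that passed only through the line where they were high had to differ. This count is thus no support for a difference of the list.

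HOXB2 had no count in C2C12 and 99.6, 123, 102 and 98.5 TPM in LHCN-M2, at least 4475-fold higher. HOXB7 had 6 counts in C2C12 and 103, 165, 111 and 100 TPM in LHCN-M2. Both were highest in LHCN-M2 replicate 2. HOXA10, a posterior gene, had 79.5, 83.2, 82.2 and 86.3 TPM in C2C12 and 8.70, 9.40, 7.84 and 10.3 in LHCN-M2, and HOXC11 had 64.1 ± 4.72 and 7.87 ± 1.09. HOXC6 overlapped between the lines, at 32.6 to 43.6 TPM in C2C12 and 33.6 to 43.0 in LHCN-M2 (log2 difference -0.14 ± 0.11, adjusted p = 0.25, or -0.57 without gene length). The human rows of HOXA10 and HOXC6 lie 97.4% and 100% within rows on the same strand that had no day 0 count, and the part of that overlap was not tested.

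**Figure D4:**
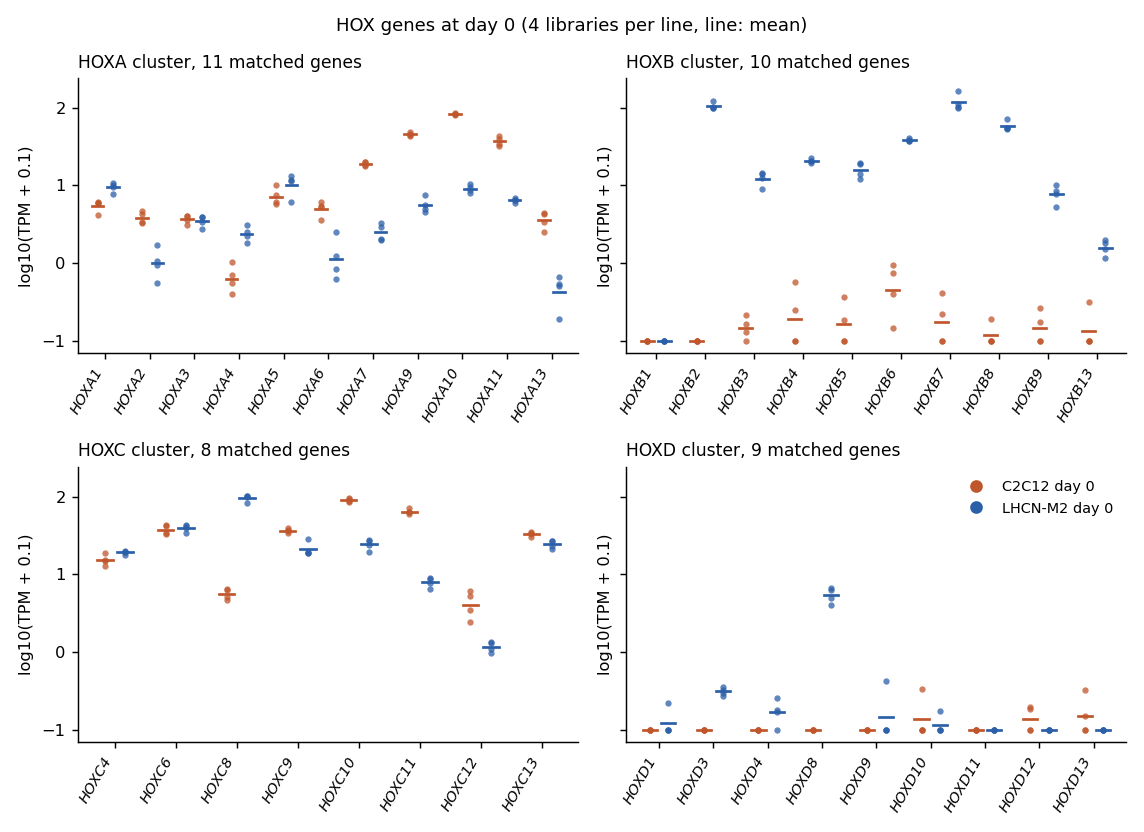
Level of the matched HOX genes in each of the 4 day 0 libraries of C2C12 and of LHCN-M2, as log10(TPM + 0.1), 1 panel per cluster with the genes in order of their number and the mean as a short line. HOXB genes lie at the floor of the plot in C2C12 and up to a mean of 119.8 TPM in LHCN-M2, while HOXA10 and HOXC11 are higher in C2C12.

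Other patterning factors split likewise. PRRX1 and PRRX2, homeodomain factors of limb mesenchyme, were higher in C2C12: PRRX1 had 115, 124, 138 and 130 TPM against 18.3, 12.3, 17.1 and 18.2, and PRRX2 had 210 ± 14.4 against 1.79 ± 1.11. FOXD1 had 12 counts over the C2C12 libraries and 72.6 ± 6.57 TPM in LHCN-M2, and PITX1, the hindlimb factor, had 1 count in C2C12 and 19.7 ± 5.20 TPM in LHCN-M2. With a single count the ratio for PITX1 was 1977 with a 95% counting interval of 355 to 78097. TBX15, a T-box factor of limb and trunk mesenchyme, overlapped between the lines at 30.5 ± 2.80 and 27.6 ± 4.62 TPM. Of 34 factors matched, 25 passed the filter, and 10 of these were at least 2-fold higher in each line. This count has the same limit as that of the HOX genes.

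Genes of the amino acid stress response were high in C2C12 at day 0. ATF4 is the transcription factor that is translated when amino acids run short or the integrated stress response is on, and it binds elements with the letters TGATGNAA in the promoters of genes for amino acid synthesis, amino acid transport and tRNA charging. That motif was found on either strand, in the 250 bases before to 50 after the start site, in 9 of the 25 genes of the list with a mouse RefSeq promoter (36.0%). Over all matched genes with such a promoter the share was 398 of 12552 (3.17%), and among those high in both lines 11 of 300 (3.67%). A match is a description of letters and not a site that was shown to be bound. The following promoter stretches, from the mouse RefSeq table on GRCm38.p6, are shown as examples of the motif before the start site, and were chosen after the levels were seen. Of their genes, Vldlr was lower in C2C12 than in LHCN-M2 and Slc7a11 overlapped between the lines. They are 60 bases long, 5′ to 3′ on the strand of the gene, with TGATGNAA or its reverse complement in capitals.
Asns, chr6:7693210-7693269, minus strand: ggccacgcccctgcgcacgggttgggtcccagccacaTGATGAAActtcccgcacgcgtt
Chac1, chr2:119351023-119351082, plus strand: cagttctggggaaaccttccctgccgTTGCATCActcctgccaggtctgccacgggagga
Nupr1, chr7:126625547-126625606, minus strand: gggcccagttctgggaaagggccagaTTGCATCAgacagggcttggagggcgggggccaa
Pycr1, chr11:120643818-120643877, minus strand: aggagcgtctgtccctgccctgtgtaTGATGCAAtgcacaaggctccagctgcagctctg
Slc7a11, chr3:50443627-50443686, minus strand: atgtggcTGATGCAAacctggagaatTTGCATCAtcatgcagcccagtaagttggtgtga
Atf3, chr1:191183410-191183469, minus strand: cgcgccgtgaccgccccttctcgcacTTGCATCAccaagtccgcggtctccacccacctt
Vldlr, chr19:27216794-27216853, plus strand: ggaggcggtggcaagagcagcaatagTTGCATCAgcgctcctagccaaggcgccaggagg

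ASNS, asparagine synthetase, had 865, 889, 874 and 846 TPM in C2C12 and 0.420, 0.286, 0.658 and 1.10 in LHCN-M2. CHAC1, which breaks down glutathione, had 244, 277, 223 and 268 TPM in C2C12 and 6.59, 4.58, 5.15 and 4.53 in LHCN-M2. CTH, the last enzyme of cysteine synthesis, had 179, 179, 172 and 158 TPM in C2C12 and 4.21, 3.01, 3.92 and 3.35 in LHCN-M2. Each was higher in all C2C12 libraries, by 10.37 ± 0.29, 5.51 ± 0.15 and 5.48 ± 0.12 on the log2 scale. ASNS and CHAC1 were picked by the rank rule as high in C2C12 only, so no p-value is given for them. For CTH, which the rule did not pick, the edgeR adjusted p was 8.1e-11. The human row of ASNS lies 100% within another row on the same strand that had 26 day 0 counts, and the part of that overlap in its low value was not tested. NUPR1, a small stress-induced chromatin protein, had 207 ± 13.7 and 31.9 ± 12.3 TPM, with LHCN-M2 replicate 2 at 50.2. ATF3, a stress-induced factor, had 26.3 ± 2.00 and 2.22 ± 0.462 TPM, and TRIB3, a pseudokinase that feeds back on ATF4 and is named after its values were seen, had 255 ± 24.1 and 5.99 ± 0.660.

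Not all members followed. STC2, a secreted stress-induced glycoprotein, had 6.30, 6.80, 6.64 and 6.21 TPM in C2C12 and 2176, 1906, 2029 and 2148 in LHCN-M2, a log2 difference of -8.40 ± 0.10 (adjusted p = 1.6e-11), and VLDLR, a lipoprotein receptor, had 0.308 ± 0.0629 and 3.48 ± 0.815 TPM. SLC7A11, the cystine transporter, overlapped between the lines at 24.1 ± 3.02 and 22.2 ± 6.92 TPM (log2 difference 0.05 ± 0.18, adjusted p = 0.79, or 0.71 and adjusted p = 0.00396 without gene length). ATF4 itself was high in both lines, with 1028, 1056, 967 and 962 TPM in C2C12 and 331, 435, 311 and 306 in LHCN-M2, and no overlap. NARS and AARS, the synthetases that charge asparagine and alanine tRNA, had 649 ± 30.7 and 213 ± 14.96 TPM in C2C12 and 202 ± 19.6 and 147 ± 9.35 in LHCN-M2. Of the 30 tested members, 17 were at least 2-fold higher in C2C12 and 4 in LHCN-M2 (median log2 difference 1.31).

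The same list moved in opposite directions over time. In C2C12, at an adjusted p under 0.05, 27 of 30 members were higher at day 0 than at day 6 and 2 lower. Their median was 1.28 on the log2 scale. Over all genes tested in C2C12, 32.5% were higher at day 0 and 33.1% lower. In LHCN-M2, 4 members were higher at day 0 than at day 12 and 22 lower, with a median of -0.73. The shares over all genes tested in LHCN-M2 were 27.5% and 27.1%. CTH, for example, was at 172 ± 9.96 TPM at day 0 and 8.14 ± 1.30 at day 6 in C2C12, and at 3.62 ± 0.543 at day 0 and 8.46 ± 0.908 at day 12 in LHCN-M2. PYCR1, which makes proline, was at 88.0 ± 5.92 and 8.62 ± 1.23 TPM at day 0 and day 6 of C2C12, and at 64.7 ± 4.60 and 89.0 ± 4.02 at day 0 and day 12 of LHCN-M2. ASNS was higher at day 0 in C2C12, by 2.02 ± 0.07, and lower at day 0 in LHCN-M2, by -2.70 ± 0.32. It was picked by its day 0 ranks, and that choice favours both of these directions. The labels give no harvest density or time since the last medium change, and the difference of these changes between the lines was not tested.

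**Figure D5:**
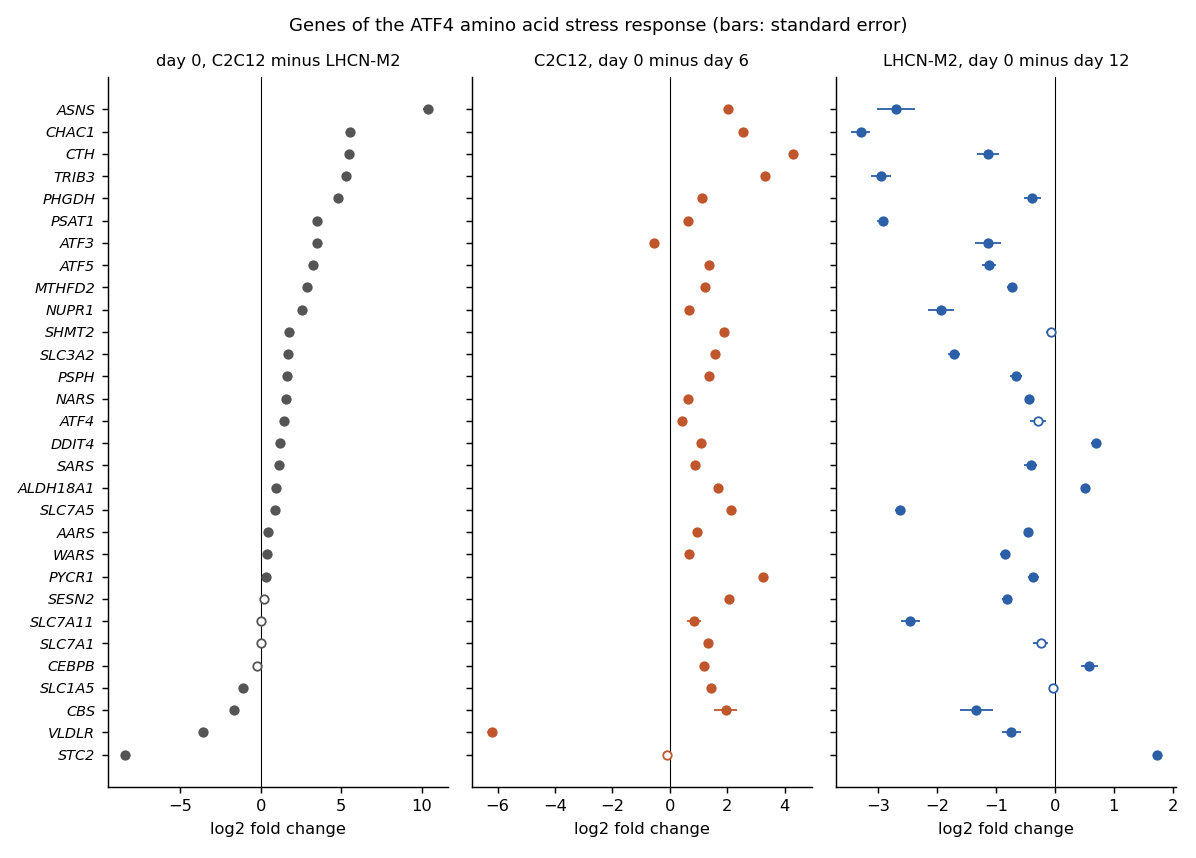
Log2 fold change with its standard error for the 30 matched genes of the ATF4 list in 3 comparisons: C2C12 minus LHCN-M2 at day 0 (left), C2C12 day 0 minus day 6 (middle) and LHCN-M2 day 0 minus day 12 (right), with filled points at an adjusted p under 0.05. Most points lie right of 0 in the left and middle panels and left of 0 in the right panel, and STC2 and VLDLR lie left of 0 in the left panel.

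Several chemokine genes were abundant in C2C12 and low in LHCN-M2. Of 35 cytokines, chemokines and complement genes matched, 26 passed the filter, and 18 of these were at least 2-fold higher in C2C12 and 5 in LHCN-M2. As for the sarcomere genes, members that passed only through the line where they were high had to differ, so the count is no support for a difference of the list. By rank, 5 were high in C2C12 only. CXCL5, a neutrophil chemokine, had 1898, 1731, 1774 and 1770 TPM in C2C12 and 6 counts in all in LHCN-M2. CCL7, a monocyte chemokine, had 320, 248, 253 and 275 TPM in C2C12 and no count in LHCN-M2, at least 2931-fold higher. CCL2, CXCL1 and CXCL12, chosen after their values were seen, had 253 ± 25.5, 573 ± 16.5 and 530 ± 39.2 TPM in C2C12 and 0.201 ± 0.268, 2.64 ± 0.704 and 2.81 ± 0.666 in LHCN-M2. All 5 were higher in every C2C12 library. PTX3, a pattern recognition protein, was high in both at 392 ± 23.7 and 260 ± 9.95 TPM, CSF1, the macrophage growth factor, had 274 ± 13.5 and 79.2 ± 5.01, and LIF, a cytokine that keeps myoblasts dividing, had 5.94 ± 0.921 and 73.7 ± 7.44.

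Of 32 collagens and assembly genes, 17 were at least 2-fold higher in C2C12 and 7 in LHCN-M2 (median log2 difference 1.24). PCOLCE, which speeds the trimming of procollagen, had 1072, 1108, 1028 and 1109 TPM in C2C12 and 5.82, 6.03, 6.48 and 5.02 in LHCN-M2. COL5A3 had 186 ± 18.0 and 0.349 ± 0.158 TPM. LOXL2, a collagen crosslinking enzyme, was higher in LHCN-M2, at 11.4 ± 1.03 and 258 ± 32.9. Among 36 matrix glycoproteins and proteoglycans 15 were at least 2-fold higher in C2C12 and 13 in LHCN-M2. The small proteoglycans OGN and BGN had 1834 ± 51.1 and 1773 ± 167 TPM in C2C12, and 4 and 12 counts in all in LHCN-M2. TGFBI, a matrix protein induced by TGF-beta, had 2.00, 2.74, 2.82 and 2.75 TPM in C2C12 and 2815, 2834, 2963 and 2832 in LHCN-M2, and FBN2, a fibrillin of developing tissue, had no count in C2C12 and 74.4, 30.9, 77.9 and 83.5 TPM in LHCN-M2, at least 10690-fold higher. Each line thus had its own abundant matrix genes at day 0. Of 30 integrin and focal adhesion genes, 6 were at least 2-fold higher in C2C12 and 15 in LHCN-M2. ITGA10, a collagen-binding integrin, had 0.949 ± 0.273 and 125 ± 23.6 TPM, and ITGA6, a laminin-binding one, 13.4 ± 0.577 and 84.1 ± 20.7.

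Receptors and ligands of growth factors also differed. PDGFRB and PDGFRA, the receptors of platelet-derived growth factors, had 187 ± 21.9 and 40.5 ± 4.74 TPM in C2C12, against 14.9 ± 2.84 and 2.02 ± 0.153 in LHCN-M2. The human row of PDGFRA lies 95.7% within another row on the same strand, whose part was not tested. TGFBR2 and TGFBR1, the receptor pair for TGF-beta, were higher in LHCN-M2: TGFBR2 had 82.9, 109, 109 and 102 TPM in C2C12 and 973, 604, 1140 and 1063 in LHCN-M2, and TGFBR1 16.6 ± 2.64 and 93.7 ± 21.4. MET, the receptor of the hepatocyte growth factor that activates satellite cells, had 28.9, 30.2, 31.2 and 31.2 TPM in C2C12 and 170, 105, 202 and 198 in LHCN-M2. All LHCN-M2 libraries were higher for these 3, and replicate 2 was the lowest of them. Of 38 receptors matched, 34 passed the filter, and 16 of these were at least 2-fold higher in C2C12 and 9 in LHCN-M2. The limit given for the HOX gene count holds here too.

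IGF1, the growth factor that drives myoblast division and muscle growth, had 26.7, 28.9, 30.9 and 29.8 TPM in C2C12 and no count in LHCN-M2, at least 2926-fold higher. FGF7 had 126 ± 5.97 TPM in C2C12 and 1.92 ± 0.539 in LHCN-M2. With either strand counted, other rows covered 78.7% of the human span of IGF1 and 100% of that of FGF7. The part of that overlap was not tested. In the other direction, GDF6, a BMP family ligand, had 12 counts in all in C2C12 and 85.1 ± 11.1 TPM in LHCN-M2, and NOG, the BMP antagonist noggin, had 2 counts in all in C2C12 and 208, 220, 202 and 201 TPM in LHCN-M2. For NOG the ratio was 5902, with a counting interval of 1634 to 48732. IGFBP7 and IGFBP6, binding proteins of insulin-like growth factors, were high in both lines. Of 38 tested ligands and binding proteins, 19 were at least 2-fold higher in C2C12 and 15 in LHCN-M2. Among metalloproteases and their inhibitors, MMP2, a gelatinase, was high in both at 752 ± 43.0 and 881 ± 46.6 TPM, as was TIMP1, MMP11 was higher in C2C12 (164 ± 15.8 and 4.87 ± 0.759), and SERPINE2, an inhibitor of thrombin and urokinase, in LHCN-M2 (13.3 ± 0.522 and 376 ± 22.3).

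Of the genes high in C2C12 only and in LHCN-M2 only, 4 and 6 had no count in the other line. The C2C12 genes with the widest gap in rank were EEF1G, CCL7, MGP, BRINP3, OGN, AEBP1, BGN, CXCL5, PDPN, GCHFR, ACTG2 and RNASE4. MGP, the matrix Gla protein that blocks calcification, had 256, 249, 221 and 254 TPM in C2C12 and no count in LHCN-M2, at least 8015-fold higher. BRINP3 had 218, 219, 219 and 230 TPM in C2C12 and no count in LHCN-M2, at least 11771-fold higher. PDPN, the mucin-like podoplanin, had 323 ± 6.42 TPM in C2C12 and 14 counts in all in LHCN-M2, AEBP1, a collagen-binding protein, 507 ± 51.7 TPM and 12 counts, and GCHFR, a regulator of GTP cyclohydrolase, 255 ± 20.7 TPM and 8 counts.

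A part of the C2C12 set sits in overlapping human genes. The human span of 18 of the 53 (34.0%) was covered for 80% or more by another row on the same strand, against 7.17% of all matched genes and none of the 32 LHCN-M2 genes. EEF1G, an elongation factor subunit that all growing cells use, had 765, 730, 722 and 736 TPM in C2C12 and no count in LHCN-M2, and 99.99% of its human span lay within another row, which had 508 day 0 counts. MIF, a cytokine-like tautomerase, CDC42, a GTPase of the actin cytoskeleton, EIF4A1, the helicase of translation initiation, and GABARAP, an autophagy protein, had 3247 ± 475, 664 ± 12.9, 624 ± 26.0 and 623 ± 25.2 TPM in C2C12 and 1.23 ± 0.839, 0.988 ± 0.186, 4.49 ± 0.948 and 0.650 ± 0.376 in LHCN-M2. Their human spans were covered for 99.7%, 100%, 100% and 85.02%, and they are named here after their values were seen. RNASE4 is a case of the same kind, at 95.8%. These shares count the same strand only. With either strand counted, 100% of the human spans of MGP and OGN was covered as well. The same held for ACTC1, CDKN2A and SRPX, which were high in LHCN-M2 only. The part of the overlap in these values was not tested. Without the genes covered on the same strand the C2C12 set held 35. For the mouse side, in the GENCODE M21 annotation, 2 of 31 LHCN-M2 genes (6.45%) and 4.64% of all matched genes were covered for 80% or more on the same strand.

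The LHCN-M2 genes with the widest gap in rank were NPTX2, CDKN2A, DKK1, CPA4, TWIST1, LDOC1, TNFAIP8L3, SRPX, NOG, SRGN, TERT and RPL36AL. NPTX2, a pentraxin of synapses, had 2776, 2469, 2754 and 2766 TPM in LHCN-M2 and no count in C2C12, at least 82813-fold higher. DKK1, the secreted WNT antagonist, had 298, 231, 295 and 293 TPM in LHCN-M2 and no count in C2C12, at least 8221-fold. SRGN, the proteoglycan serglycin, had 1478, 1469, 1503 and 1456 TPM in LHCN-M2 and 0.879 ± 0.219 in C2C12. All 3 were close in level across the LHCN-M2 libraries, with replicate 2 lowest for NPTX2 and DKK1. CPA4, a carboxypeptidase, had 259 ± 27.0 TPM and LDOC1, a retrotransposon-derived gene, 207 ± 16.5 TPM in LHCN-M2, both with no count in C2C12. TNFAIP8L3, a phosphoinositide carrier, had 207 ± 8.597 TPM, SRPX 302 ± 15.1, and NT5E, the surface nucleotidase CD73, 1313 ± 209, the last named after its values were seen. RPL36AL had 723 ± 141 TPM in LHCN-M2 and 35 counts in all in C2C12, and MYL12B, a regulatory myosin light chain, 846 ± 142 and 4.80 ± 0.366 TPM. RPL36AL has a near-identical relative, and 92.4% of its mouse span lies within another gene on the same strand in GENCODE M21, so its value is uncertain. For MYL12B no mouse overlap could be computed from GENCODE M21, so its low mouse value was not checked in that way.

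Markers of other cell types were compared as whole lists. For fibroblasts, 6 of the 12 tested were at least 2-fold higher in each line, with a summed level of 3601 to 4362 TPM in C2C12 and 2541 to 4031 in LHCN-M2. Most of that sum was COL3A1, a fibrillar collagen, in C2C12 (3680 ± 297 TPM, and 395 ± 50.8 in LHCN-M2) and S100A4 in LHCN-M2 (2249 ± 781, and 112 ± 22.4 in C2C12). In GENCODE M21 the span of mouse S100a4 lies 93.0% within another gene on the same strand, and the part of that overlap in its low mouse level was not tested. THY1, a surface glycoprotein of fibroblasts, had no count in C2C12 and 139 ± 16.4 TPM in LHCN-M2 (at least 5066-fold), and FAP, the fibroblast activation protease, 0.311 ± 0.0979 and 79.2 ± 9.26. Bone and cartilage markers summed to 4952 to 5449 TPM in C2C12 and 229.5 to 256.6 in LHCN-M2, nearly all of it SPP1, the secreted osteopontin, in C2C12 (5403, 4904, 4954 and 5372 TPM, against 2.69 ± 1.22 in LHCN-M2). Of 11 matched, 5 were tested, with 1 at least 2-fold higher in C2C12 and 2 in LHCN-M2. ALPL, at a mean percentile of 26.9 in C2C12 and 94.7 in LHCN-M2, and SOX9 ranked higher in LHCN-M2 without overlap. RUNX2, the bone regulator, overlapped at 32.4 ± 3.91 and 32.7 ± 6.44 TPM, and passed the test only without LHCN-M2 replicate 2 (-0.18, adjusted p = 0.0416). Adipocyte markers summed to 117.1 to 119.8 TPM in C2C12, where LPL and CEBPA had 44.1 ± 3.16 and 22.1 ± 1.19, and to 54.84 to 65.57 in LHCN-M2, where both had no count. Of 9 adipocyte markers matched, 5 were tested, with 3 at least 2-fold higher in C2C12 and 0 in LHCN-M2. PNPLA2 went the other way and ranked higher in LHCN-M2 without overlap. Endothelial markers summed to 4.22 to 5.53 and 25.9 to 39.4 TPM, blood and immune markers to 40.02 to 55.04 and 5.11 to 6.03, epithelial markers to 43.6 to 64.8 and 1.71 to 4.46, and neural markers to 62.6 to 67.5 and 18.7 to 25.6. EPCAM had no count in either line, and PTPRC had none in C2C12. The part of cells of another kind in the differences above was not tested.

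The genes high at day 0 were followed to the last day of each line. Of the 378 genes high in both, 126 were higher and 181 lower at day 0 than at day 6 in C2C12 (median -0.12 on the log2 scale), and 259 were higher and 48 lower at day 0 than at day 12 in LHCN-M2 (median 0.52). Over all genes tested the medians were 0.03 and 0.01, with 32.5% and 33.1% higher and lower at day 0 in C2C12, and 27.5% and 27.1% in LHCN-M2. Of the 53 genes high in C2C12 only, 33 were higher and 12 lower at day 0 in their own line (median 0.29), and of the 32 high in LHCN-M2 only, 23 were higher and 4 lower (median 1.26). These genes were chosen at day 0, so a fall from there is the side that the choice favours, and nothing is read from these counts. In their own line 27 of the 53 and 18 of the 32 were still in the highest 5% in all 4 last-day libraries.

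Single genes show how far the day 0 state was kept. NPTX2 was at 2691 ± 148 TPM at day 0 of LHCN-M2 and at 51.7 ± 3.01 at day 12 (log2 difference 5.79 ± 0.07). CXCL5 was at 1793 ± 72.7 TPM at day 0 of C2C12 and at 40.4 ± 4.49 at day 6 (5.36 ± 0.09). Both were picked for their high day 0 ranks, so a fall is the side that the choice favours, and no p-value is given. MYF5 was at 732 ± 89.3 TPM at day 0 and 40.9 ± 5.56 at day 12 in LHCN-M2, but at 38.7 ± 2.29 and 62.3 ± 3.14 at day 0 and day 6 in C2C12. MYF5 thus fell after day 0 in LHCN-M2 and rose in C2C12, with log2 differences of day 0 minus the last day of 4.24 ± 0.11 and -0.80 ± 0.08. MYOD1 rose in both lines, from 6.11 ± 1.25 to 37.9 ± 3.89 TPM in C2C12, while LHCN-M2 went from 128 ± 10.5 to 289 ± 14.8. ID3 fell in both, from 170 ± 5.21 to 27.1 ± 1.74 TPM and from 441 ± 43.2 to 31.2 ± 3.84. MYOG rose from 9.84 ± 0.744 to 346 ± 4.87 TPM in C2C12, and LHCN-M2 went from no count to 1054 ± 41.5. VIM moved in opposite directions, from 3966 ± 150 to 5963 ± 41.0 TPM in C2C12, whereas LHCN-M2 went from 2655 ± 287 to 821 ± 97.4. COL1A2, whose day 0 levels overlapped between the lines, had 281 ± 12.6 TPM at day 6 in C2C12 and 3252 ± 94.7 at day 12 in LHCN-M2. CCND1 was lower at day 0 than at day 6 in C2C12 (71.1 ± 4.82 and 200 ± 8.71 TPM) and higher at day 0 than at day 12 in LHCN-M2 (1474 ± 238 and 698 ± 38.4).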

How the data were processed

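Poly(A) RNA was sequenced from 12 libraries of each line, and the 4 day 0 libraries of each are the subject here. The authors deposited raw counts per gene with gene lengths. Per the submitters' processing notes the tools were featureCounts 2.0.6, HISAT2 2.2.1, StringTie 2.2.3 and fastp, with no role or order given, and the builds mm10, GRCh38 and hg38. No source used here gives the annotation or the strand setting of the counting, so antisense and overlapping genes cannot be told apart. Groups and replicate numbers came from the sample titles.

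TPM were computed from the deposited counts and lengths over the 16608 matched symbols. Between lines, counts were tested with edgeR 4.0.16 (quasi-likelihood, R 4.3.3), with gene length and TMM-scaled library size as offset and the filter of edgeR on low counts. Day 0 was tested against day 6 or day 12 within a line on all 12 libraries and all genes of that line. P-values were adjusted by Benjamini-Hochberg over all genes tested, with a threshold of 0.05. On simulated counts the between-line test recovered 97% of genes changed 2-fold. The simulation gave all genes the same spread and changed few of them, so that share need not hold for these data. The members, the lists and the tests were chosen with earlier results of these data known. Named genes were the 15 that ranked highest in both lines outside ribosomal and mitochondrially encoded genes, the 12 with the widest rank gap for each line, up to 6 per list by the same measures, myogenic, surface and G1 genes, cell type markers, TERT and CDK4. Alternatives were other scalings, DESeq2 1.42.0, no filter, no gene length, other rank limits, a replicate block and each library left out. Promoters came from the RefSeq table on GRCm38.p6, matched by symbol for 12552 genes. Python 3.11.15 with pandas 2.3.3 and matplotlib 3.10.9 did the rest.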

Additional observations from a re-analysis of the deposited data

Results flagged for a closer look

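LHCN-M2 replicate 2 lay far from the other 3 day 0 libraries of its line in many named genes. By chance about 1 in 20 groups of 4 has a library that far out. Many named genes were examined in each line, so some of these flags are expected by chance. It was the highest library for TMSB10 (26879 TPM, the others 12902 to 15275), S100A4 (3421 TPM), RPL19 (2393), TPI1 (2149), TIMP1 (1721), MYL12B (1059), DES (659), IGFBP6 (360.4), CDH15 (208), HOXB7 (165), HOXB2 (123) and NUPR1 (50.2). It was the lowest for NPTX2 (2469 TPM, the others 2754 to 2776), THBS1 (1685), ITGB1 (1071), DKK1 (231), LOXL2 (208), ITGA10 (89.9) and FAP (65.4).

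Other libraries stood out for single genes. In C2C12 these were replicate 1 for CAV1 (732 TPM), CCL2 (291) and TGFBI (2.00), replicate 3 for IGFBP7 (1398), RB1 (23.8) and SERPINE2 (14.04), and replicate 4 for BRINP3 (229.8) and CCND1 (78.3). In LHCN-M2 they were replicate 3 for TGFBI (2963 TPM), NES (856), PRRX2 (3.44) and SNAI1 (1.07), and replicate 4 for RNASE4 (0.549).

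Some named genes passed the test in opposite directions over time, with each day 0 library of a line on the same side of the last-day libraries; the difference between the lines itself was not tested. Higher at day 0 in C2C12 and lower in LHCN-M2, by the log2 fold change of day 0 against the last day, were CTH (4.29 and -1.14), PYCR1 (3.24 and -0.36), CHAC1 (2.53 and -3.30), COL1A2 (2.42 and -1.003), ASNS (2.02 and -2.70), AARS (0.94 and -0.45), SLC7A11 (0.85 and -2.45) and NUPR1 (0.66 and -1.93). Lower at day 0 in C2C12 and higher in LHCN-M2 were CCND1 (-1.60 and 1.16), LGALS1 (-0.82 and 1.54), MYF5 (-0.80 and 4.24), VIM (-0.70 and 1.79) and PKM (-0.56 and 1.23). CHAC1 and ASNS were picked as high in C2C12 only at day 0, and that choice favours the directions given for them.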

How the results depend on the processing

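With the highest 10% in place of the highest 5%, 809 genes were high in both lines, 102 in C2C12 only and 75 in LHCN-M2 only. With the lower 40% in place of the lower 50%, 30 genes were high in C2C12 only and 14 in LHCN-M2 only. Ranks without gene length kept 266 of the 378 genes, 27 of the 53 and 17 of the 32. Leaving out genes covered by another human gene on the same strand, chosen after seeing the data, left 35 genes in C2C12 only. Without gene length the log2 difference between lines turned to 0.32 for CDCA8, 0.64 for FTH1, -0.57 for RPL19 and 0.090 for TPX2. Leaving out 1 library at a time gave 379 to 403 genes high in both lines, 53 to 57 in C2C12 only and 32 to 37 in LHCN-M2 only. It gave 4934 to 5539 genes higher in C2C12 and 5158 to 5518 in LHCN-M2 at day 0. The other counts kept within 1.5 times of their value in all alternatives run (190 values).

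The replicate numbers are shared between groups, but the labels do not say that they mark a shared culture or day. In 1 of 12 comparisons across groups, a day 0 library correlated best with the library of its own number. With the replicate block, 5004 genes were higher in C2C12 and 5076 in LHCN-M2, against 5114 and 5253 without it. The counts of day 0 against the last day became 5423 and 5614 in C2C12 and 4744 and 4758 in LHCN-M2. Among the named genes the block ended the call of FTH1 (-0.26, adjusted p = 0.0983).

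Limits: line, species and annotation coincide, gene lengths differ between the tables, 1 LHCN-M2 library stands apart, and low genes at 0 to 3 counts allow no fold beyond the bounds given.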

Other observations

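Immediate early and interferon genes were not described above. The median percentile of the immediate early genes was 66.4 in C2C12 and 79.9 in LHCN-M2, and that of the interferon-stimulated genes 76.6 and 68.6. Of 24 immediate early genes 6 were at least 2-fold higher in C2C12 and 7 in LHCN-M2, and of 27 interferon-stimulated genes 10 and 6. Of 25 genes of cholesterol synthesis, 7 were at least 2-fold higher in C2C12 and 3 in LHCN-M2, and none was high in both lines. Of 17 YAP and TEAD genes and targets, 2 were at least 2-fold higher in C2C12 and 7 in LHCN-M2. Over all genes these shares were 28.7% and 29.2%.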
